A study of Mus musculus with 12 samples.

Results

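The spectrins and ankyrins are described here by 6 genes of the membrane skeleton: the spectrin genes Sptan1, Sptbn1 and Sptbn4 and the ankyrin genes Ank1, Ank2 and Ank3. They were taken by gene symbol from the annotation of every peak list, as 6 of the 11356 gene symbols with a peak in any list. Chimeric reads of small RNAs joined to their targets were obtained from adult mouse forebrain by Argonaute (Ago) cross-linking and immunoprecipitation, in which a small RNA is ligated to the RNA it is bound to inside the Ago complex. The mice were C57BL/6, and per the labels the tissue was taken at 10 to 12 weeks of age and received 3 rounds of ultraviolet cross-linking.

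The 12 libraries form 4 groups, and the peaks of each group were called on its pooled libraries. Anti-Ago2 on whole forebrain was used for replicates 1 to 4 (the reps 1-4 list, 4 libraries) and for replicates 5 to 7 (the reps 5-7 list, 3 libraries). Anti-myc was used to pull down myc-tagged Ago2 from excitatory neurons (the excitatory list, 3 libraries), where the tag was switched on through Camk2a-CreERT2, a tamoxifen-dependent Cre driven in forebrain excitatory neurons. A control immunoglobulin G (the IgG list, 2 libraries) gave the background. The labels give the same tamoxifen course for every sample, 2 mg a day for 5 days with tissue taken 14 to 21 days later, and do not say if the tagged allele was present in the animals behind the anti-Ago2 and IgG libraries. Each list is a single pooled observation, and no value below has a spread between replicates. Intervals are Wilson 95% intervals and, like the tests, cover counting error in peaks only. All positions are on mm10.

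Spectrin is a long, flexible tetramer of alpha and beta chains that crosslinks actin under the plasma membrane, and in axons it forms a periodic lattice. Ankyrins are adaptors whose repeats bind membrane proteins such as ion channels and cell adhesion molecules and whose central part binds beta spectrin. Through this link, ankyrin-G (Ank3) and beta-4 spectrin (Sptbn4) gather sodium channels at the axon initial segment and nodes of Ranvier, while ankyrin-B (Ank2) and beta-2 spectrin (Sptbn1) line the axon shaft. Brain transcripts of Ank2 and Ank3 include giant forms made by the inclusion of a very long coding exon. MicroRNAs guide Ago to targets mainly through pairing of their seed, the bases 2 to 8 counted from the 5′ end.

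The mature sequences of the microRNAs behind the peaks described below are given 5′ to 3′ with the seed in capitals, from RefSeq with the build GRCm38.p6, so that names that share a seed can be read as 1 group. The miR-29 and let-7 families come first because several of their members were listed at the same places on spectrin genes. The others belong to further peaks described below, some of them of low score. Not every microRNA named below is printed: miR-124-3p, which gave many of the highest scores, had no match in that source.
miR-29a-3p: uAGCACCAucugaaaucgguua
miR-29b-3p: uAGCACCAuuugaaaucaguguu
miR-29c-3p: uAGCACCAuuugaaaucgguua
let-7a-5p: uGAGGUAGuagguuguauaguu
let-7c-5p: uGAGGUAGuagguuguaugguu
let-7d-5p: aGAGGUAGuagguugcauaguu
miR-138-5p: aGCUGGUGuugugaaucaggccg
miR-22-3p: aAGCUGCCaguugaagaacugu
miR-9-5p: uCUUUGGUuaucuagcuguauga
miR-128-3p: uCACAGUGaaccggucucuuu
miR-125b-5p: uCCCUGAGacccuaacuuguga
miR-137-3p: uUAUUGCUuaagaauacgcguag
miR-26a-5p: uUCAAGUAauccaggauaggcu
miR-103-3p: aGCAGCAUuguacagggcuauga

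The 6 genes held 1880 of the 246180 peaks of reps 1-4 (0.764%, interval 0.730 to 0.799%), from 135 different small RNAs. They held 40 of the 3611 peaks of reps 5-7 (1.11%, 0.815 to 1.505%) and 14 of the 766 excitatory peaks (1.83%, 1.09 to 3.04%). IgG had 0 of 10, which allows a share of up to 30% (for every 0, the limit given is 3 counts of the total, not a Wilson bound). The lists differ in depth and make-up: introns took 47.6% of all peaks in reps 1-4, 6.04% in reps 5-7 and 4.05% in the excitatory list, and ribosomal RNA took 2.06%, 19.9% and 11.6%. Of the excitatory neuron markers, the excitatory list held 14 peaks on Camk2a and 0 on Slc17a7, Neurod6 and Tbr1. It held 0 peaks on 6 inhibitory neuron, 6 astrocyte and 6 vascular markers, 4 on oligodendrocyte lineage markers and 1 on microglial markers. A 0 in this list allows up to 0.392%. The inhibitory, astrocyte and vascular shares in reps 1-4 were 0.0390%, 0.371% and 0.0321%, so no loss against reps 1-4 was detectable. In reps 5-7 the astrocyte share, 0.969%, was above that limit, and the inhibitory and vascular shares were below it. The part of this make-up in the results below was not tested. In bulk tissue, fewer cells of a type and less RNA per cell cannot be told apart.

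Within the family the number of peaks differed widely in reps 1-4. Ank2 held 707 peaks, Ank3 531, Sptbn1 445 and Sptan1 173, whereas Sptbn4 held 15 and Ank1, the ankyrin best known from red blood cells, held 9. Among the 11352 genes with a peak in that list, Ank2 ranked 31st by number of peaks, Ank3 45th, Sptbn1 59th and Sptan1 171st. Counting only peaks on the coding sequence (CDS) and the untranslated regions (UTRs), Sptbn1 came 3rd with 327, Ank2 5th with 280, Ank3 10th with 215 and Sptan1 24th with 156. Sptbn4 and Ank1 kept 12 and 6 such peaks. These numbers are not per length, and the genes span from 65.9 kb (Sptan1) to 579 kb (Ank2).

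The alpha chain and the beta-2 chain had the highest CDS shares of the 4 genes with many peaks. Of the peaks on Sptan1, 137 of 173 (79.2%, 72.5 to 84.6%) lay in the CDS, and of those on Sptbn1, 259 of 445 (58.2%, 53.6 to 62.7%). Over all peaks of reps 1-4 the CDS share was 22.6%, and the median over the 809 genes with at least 50 peaks was 15.7%. With overlapping peaks merged into sites, the share of Sptbn1 was 45.9%. Sptan1 ranked 30th and Sptbn1 110th of these 809 genes by CDS share. The ankyrins had lower CDS shares of 32.1% (28.8 to 35.6%) for Ank2 and 32.8% (28.9 to 36.9%) for Ank3, since introns held 427 of the Ank2 peaks (60.4%) and 316 of the Ank3 peaks (59.5%). Sptbn4 was the member with most of its few peaks in the 3′ UTR, 8 of 15.

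**Figure D1:**
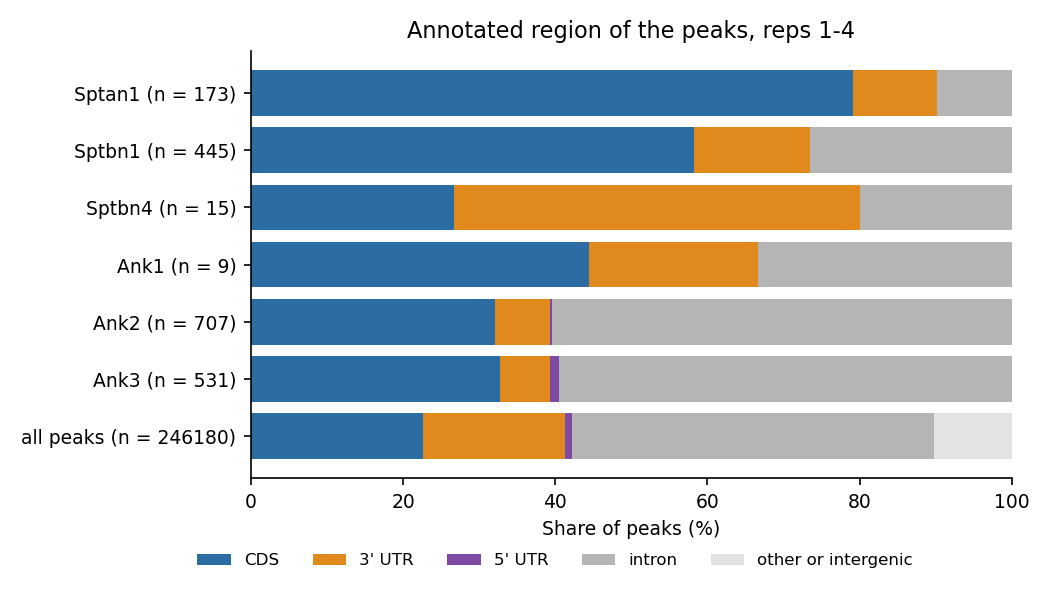
Share of reps 1-4 peaks (horizontal axis, percent) by annotated region for each gene and for all peaks of the list, with the number of peaks in brackets. CDS fills 79.2% of the Sptan1 bar and 58.2% of the Sptbn1 bar, against 22.6% for all peaks, while introns fill 60.4% and 59.5% of the Ank2 and Ank3 bars.

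The intron peaks of Ank2, Ank3 and Sptbn1 were many but low, at 73.8, 64.0 and 69.8 per 100 kb of gene, while Sptan1 had 25.8, Sptbn4 3.29 and Ank1 1.71. Each peak carries a score from the authors' deposited lists. It is a whole number without a stated definition, and its lowest value, 3, equals their minimum of reads per peak. The median score of intron peaks was 4 in Ank2, Ank3 and Sptbn1, against 6, 5 and 5 for their CDS peaks. The CDS held 60.3% of the summed score of Ank2 and 46.4% of that of Ank3. Only 31 of the 427 intron peaks of Ank2 and 17 of the 316 of Ank3 reached a score of 10. Along the gene, the CDS peaks of Ank2 had a median distance of 544 kb from the 5′ end in a gene of 579 kb, and its intron peaks one of 286 kb. In Ank3 the medians were 454 kb and 164 kb, and in Sptbn1 131 kb and 62.8 kb in a gene of 169 kb. In Sptan1 both kinds were centred alike, at 38.1 kb and 39.05 kb. However, 12 of its 17 intron peaks lay at exon edges, touching the listed intron in 1 base alone. Its intron median and its density of 25.8 rest mostly on these.

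**Figure D2:**
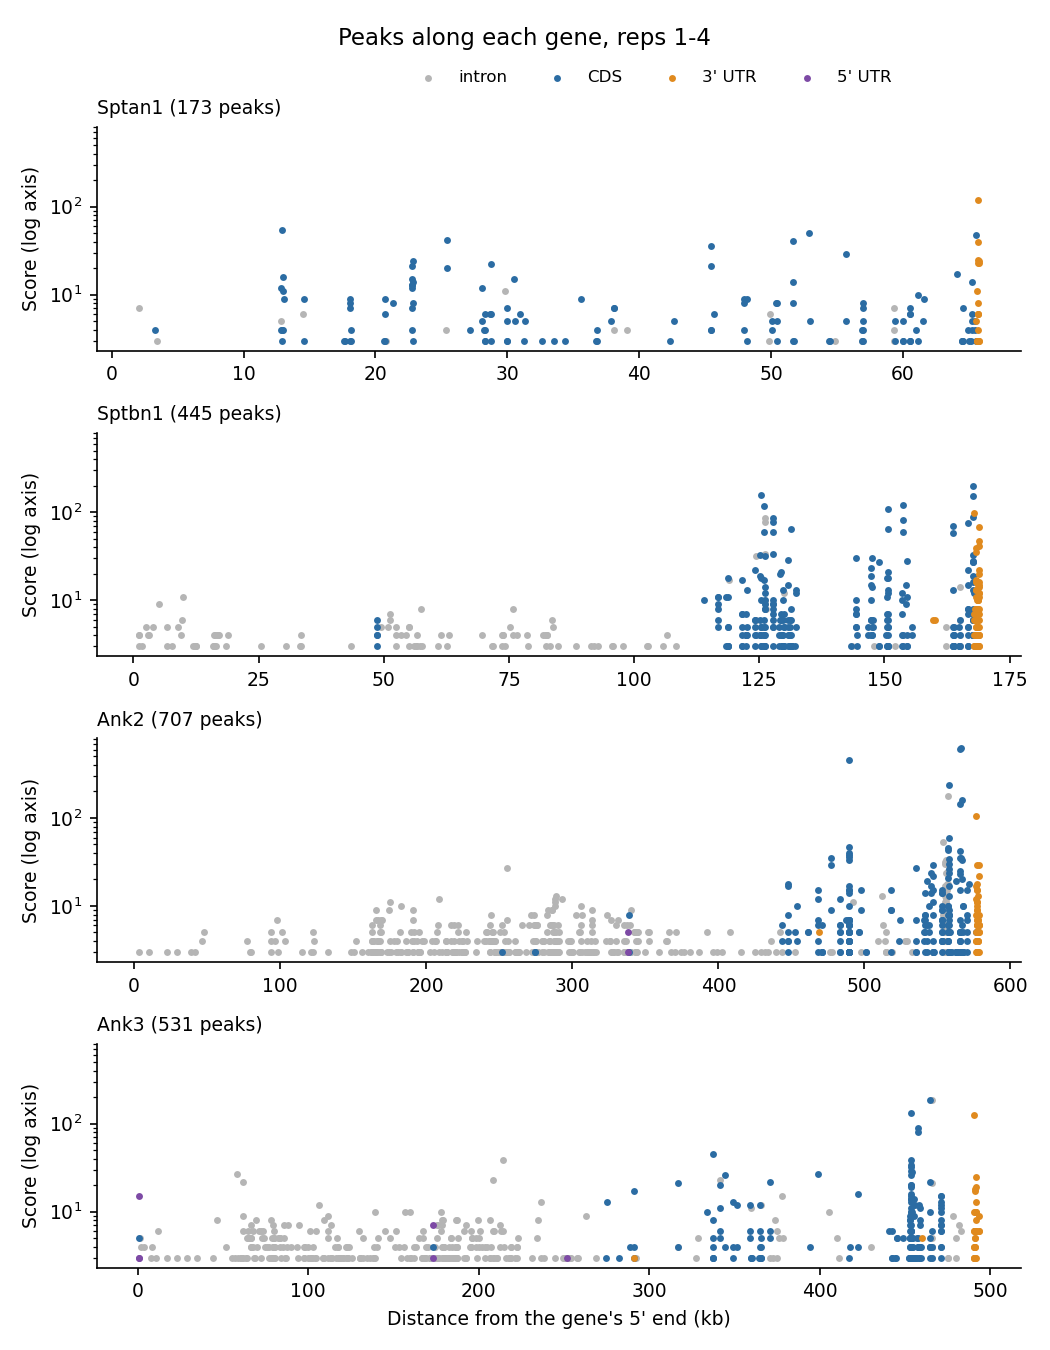
Score of each reps 1-4 peak (vertical log axis) against its distance from the gene's 5′ end in kb (horizontal axis) for the 4 genes with over 100 peaks, coloured by region. In Ank2 and Ank3 the grey intron peaks form a low band over the first part of the gene, and the scores above 100 lie in the last part, where the CDS and 3′ UTR peaks crowd.

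Sptan1 encodes alpha-II spectrin, the alpha chain of the brain tetramer (chr2:29965560-30031451, plus strand). Its peaks were spread over 48 coding features, of which the fullest held 8.03% of its CDS peaks. Its highest score was that of miR-29a-3p in the 3′ UTR at chr2:30031269-30031282, 118, followed by miR-124-3p in 3 different coding exons at 54, 50 and 47 and by miR-9-3p at 42. The miR-29a-3p peak sat in a site of 81 bases where peaks of 13 small RNAs overlapped. It held 40.8% of the summed score of that site. A second stack, of 7 small RNAs led by let-7a-5p at 21, lay in the CDS at chr2:29988350-29988371, and one of 6, led by miR-124-3p at 11, in the 3′ UTR at chr2:30031085-30031179. Over the CDS and UTR peaks of Sptan1, the miR-29 seed group had a share of 12.8% (20 of 156) and all CDS and UTR peaks one of 9.32%, a difference that was not tested.

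Sptbn1 encodes beta-II spectrin, the most widespread beta chain outside red cells (chr11:30099395-30268384, minus strand). A coding exon of 219 bases beside the 3′ UTR held the highest of its scores: miR-138-5p had peaks of 198 and 152 there, at chr11:30100590-30100590 and chr11:30100609-30100627, and another of 89 beside them at chr11:30100641-30100645. Next came miR-22-3p at 158 (chr11:30143062-30143076), miR-29a-3p at 120 (chr11:30114736-30114748), miR-9-5p at 118 (chr11:30142375-30142390) and miR-128-3p at 108 (chr11:30117700-30117713), each in a different coding exon. Thus 5 microRNAs with 5 different seeds gave the 6 scores of 100 or more on this gene, all in the CDS. By rank within its own small RNA, the miR-138-5p peak was 6th of 3485 and the miR-22-3p peak 9th of 1843 in reps 1-4. A 3′ UTR site of 129 bases at chr11:30099428-30099556 stacked 20 peaks of 17 small RNAs, led by miR-29a-3p at 68, and 70 of the 65821 CDS and UTR sites of the list held at least as many small RNAs. A coding site at chr11:30101613-30101655 stacked 12 small RNAs, led by miR-9-5p at 75, and a site of 13 small RNAs, led by miR-29b-3p at 87, began at an exon's edge at chr11:30142120-30142163.

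On Sptbn1, peaks of different small RNAs often overlapped. Its 445 peaks merged into 209 sites, 2.13 peaks per site against 1.34 over the whole list. Of these sites, 27 (12.9%) held 5 or more small RNAs, against 1.79% of all 183883 sites. The shares were 3.09% for Sptan1, 2.73% for Ank2 and 1.24% for Ank3. The value over all sites mixes regions, introns included, whereas most Sptan1 and Sptbn1 peaks lay on CDS and UTRs. Of the 65821 CDS and UTR sites, 1759 held 6 or more small RNAs. The share with 5 or more among CDS and UTR sites alone was not computed, so part of the contrast may come from region. All these shares are descriptions, since overlapping peaks of small RNAs at 1 place are not independent.

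Sptbn4 encodes beta-IV spectrin of initial segments and nodes (chr7:27356383-27447704, minus strand). Its highest score was 57, for miR-137-3p in the 3′ UTR at chr7:27357030-27357041, and its next were 24 for miR-124-3p and 10 for miR-153-3p, also in the 3′ UTR. The miR-137-3p peak overlapped those of miR-153-3p and miR-24-3p. The other 12 peaks had scores from 3 to 7. The 3′ UTR held 80.3% of the summed score of the gene. With 15 peaks in all, the shares of single small RNAs on Sptbn4 rest on 1 to 3 peaks each, miR-29a-3p having 3 and miR-124-3p and miR-128-3p 2 each.

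Ank1 encodes ankyrin-R (chr8:22974836-23150501, plus strand). Its 9 peaks had scores from 3 to 11, and none overlapped another. The 4 CDS peaks lay in 4 short coding features, 1 of 198 and 3 of 99 bases: miR-125b-5p scored 11, miR-128-3p 9, miR-124-3p 6 and miR-29b-3p 4. Its 3′ UTR held miR-153-3p and miR-103-3p at 4 each, and an intron held 2 peaks of miR-124-3p and 1 of miR-126a-3p at 3, the lowest score listed.

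Ank2 encodes ankyrin-B (chr3:126921607-127500347, minus strand) and carried the highest scores of the family. Of miR-125b-5p, 2 neighbouring peaks scored 616 and 612, at chr3:126934549-126934559 and chr3:126934563-126934582 in a coding exon of 253 bases. The first was 2nd of the 10911 miR-125b-5p peaks of reps 1-4 and 33rd of the 241105 peaks of the list that lie outside ribosomal RNA. Merged with its neighbours the pair formed a site of 18 peaks of 15 small RNAs at chr3:126934531-126934655. A further miR-125b-5p peak, of 159, lay in another coding exon at chr3:126933225-126933225. Next was miR-128-3p with 451 at chr3:127010958-127010973, 6th of 12912 peaks of that microRNA. Then came miR-124-3p with 237 at chr3:126942402-126942415 and 178 at chr3:126943394-126943403. The 20 CDS and UTR peaks of miR-125b-5p made up 7.14% of such peaks on Ank2 (4.67 to 10.8%), where all CDS and UTR peaks had 3.89%, and 31.4% of the summed score of those peaks.

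The coding exon of 198 bases that holds the miR-128-3p peak, at chr3:127010854-127011051, was the fullest of the CDS features of Ank2 with 41 peaks of 39 small RNAs, 207 peaks per kb. Of these, 33 peaks of 33 small RNAs overlapped the miR-128-3p peak itself. That peak held 56.5% of their summed score, the next one 47 (miR-129-2-3p), and the median of the other 32 was 6. After merging, the site held 35 small RNAs over 60 bases, and 12 of the 65821 CDS and UTR sites held at least as many. In the 3′ UTR, 12 small RNAs led by miR-124-3p at 29 shared the site chr3:126922874-126922952. Coding features of 99 or 198 bases were common in the ankyrins: 14 of the 42 with a peak in Ank2 and 14 of 37 in Ank3.

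A stretch of Ank2 listed as an intron carried peaks more densely than its other introns, though less so than the coding features beside it. The interval chr3:126943386-126947112, 3727 bases long, held 62 peaks of 28 small RNAs, 16.6 per kb. The coding features on either side of it held 20.3 and 24.4 per kb. The other 26 listed Ank2 introns of at least 2000 bases that held a peak had from 0.0580 to 2.98 per kb, with a median of 0.393. Introns without a peak do not enter these values, and listed introns can overlap. The interval also held the miR-124-3p peak of 178, and its median score was 5.5 against 4 in the other introns. Together with both coding features it forms a run of 6198 bases with 115 peaks. Whether the interval is exon in the transcripts of these cells was not tested. Counted as coding, its peaks raise the CDS share of Ank2 from 32.1% to 40.9%, an alternative added after seeing the data.

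Ank3 encodes ankyrin-G (chr10:69533486-70027436, plus strand). Its highest scores belonged to miR-124-3p: 187 and 186 for peaks on either side of an intron, 132 in the CDS at chr10:69987107-69987108 and 125 in the 3′ UTR at chr10:70024238-70024251. Another microRNA followed at 89, miR-9-5p at chr10:69991306-69991306. The longest coding exon, 7674 bases at chr10:69986089-69993762, held 86 of the 174 CDS peaks (49.4%) from 39 small RNAs, 11.2 per kb. Most of these, 62, were assigned to an overlapping coding feature of 2550 bases that covers its first part, where 27 peaks of 21 small RNAs merged into a site of 132 bases. Another coding site, at chr10:70004612-70004653, held 10 small RNAs led by let-7c-5p at 15, and the site of the miR-124-3p peak of 186 held 7. miR-124-3p supplied 40.4% of the summed score of the CDS and UTR peaks of Ank3, but 21.9% of their number (16.9 to 27.9%), near the 21.1% of all CDS and UTR peaks.

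Some peaks listed as intronic began or ended exactly at an exon's edge. The deposited intron coordinates include 1 base of the exon on either side, and a peak starting on that base was given to the intron. Among intron peaks of reps 1-4 this was so for 12 of 17 in Sptan1 (70.6%), 20 of 118 in Sptbn1 (16.9%), 12 of 316 in Ank3 (3.80%), 4 of 427 in Ank2 and 1 of 3 in Sptbn4, against 3.42% over all intron peaks. They held 70.9% and 47.2% of the intron scores of Sptan1 and Sptbn1. With them counted as exonic, 97.1% of the Sptan1 peaks and 78.0% of the Sptbn1 peaks were on exons. The exon-edge shares take all intron peaks of a gene as their base. That base was small in Sptan1, where introns held 9.83% of the peaks against 47.6% over the list.

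Several of these faced a peak of the same small RNA across the intron. In reps 1-4, 27 such pairs, touching the exon bases on either side of a listed intron, were found in 5 of the genes, and in 22 of them both peaks had equal scores. The pairs and the exon-edge peaks were looked for after seeing the data. On Ank3 the paired miR-124-3p peaks at chr10:69998226-69998226 and chr10:69999355-69999368 scored 186 and 187, with an intron of 1128 bases between them. On Sptbn1, 6 small RNAs had such pairs around 1 intron of 1495 bases: miR-29b-3p scored 87 and 87, miR-29a-3p 77 and 77, and miR-29c-3p 34 and 34. The paired miR-29a-3p peaks together cover 13 exon bases. In reps 5-7 both miR-29a-3p and miR-29b-3p again had paired peaks at this junction, each of score 5, and the Ank3 pair recurred at 5 and 5 in reps 5-7 and at 3 and 3 in the excitatory list.

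Small RNA use differed among members while being led by the same few names. miR-124-3p had the most CDS and UTR peaks on each of the 4 large members, with 41 of 327 on Sptbn1 (12.5%, 9.38 to 16.6%), 38 of 280 on Ank2 (13.6%, 10.0 to 18.1%), 22 of 156 on Sptan1 (14.1%, 9.50 to 20.4%) and 47 of 215 on Ank3. By number of peaks, only the Ank3 interval of these 4 includes the 21.1% of all CDS and UTR peaks. The unit matters: in summed scores the miR-124-3p share was 22.1% on Sptan1, 8.29% on Sptbn1, 13.1% on Ank2 and 40.4% on Ank3. Over the 996 CDS and UTR peaks of the 6 genes, the single names that followed were miR-9-5p with 95 (9.54%), miR-128-3p with 67 (6.73%) and miR-125b-5p with 50 (5.02%). Read by shared seed, the let-7 group had 110 (11.04%) and the miR-29 group 99 (9.94%), both more than miR-9-5p. Counting introns too, miR-124-3p and miR-9-5p led on these 4 genes, with 195 and 81 peaks on Ank2, 176 and 60 on Ank3, 81 and 31 on Sptbn1 and 26 and 13 on Sptan1, and miR-26a-5p and miR-128-3p were among the next 3 on each. On Sptbn1 several names had a share above that over all such peaks, among them miR-22-3p (10 peaks, 3.06%, 1.67 to 5.54%, against 0.951%), miR-127-3p (10 peaks, 3.06% against 1.61%), miR-132-3p (8 peaks, 2.45% against 0.711%) and the miR-125 seed group (23 peaks, 7.03% against 4.52%). Of these, miR-127-3p and miR-132-3p were picked out after their values were seen. Other names lay below, among them miR-9-5p (22 peaks, 6.73% against 10.0%) and the let-7 group (38 peaks, 11.6% against 14.1%). The share of miR-127-3p was 3.85% on Sptan1 (1.77 to 8.14%), 2.79% on Ank3 (1.29 to 5.95%) and 1.79% on Ank2 (0.765 to 4.11%). The Ank3 and Ank2 intervals include the 1.61% of all such peaks. These shares were not tested.

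**Figure D3:**
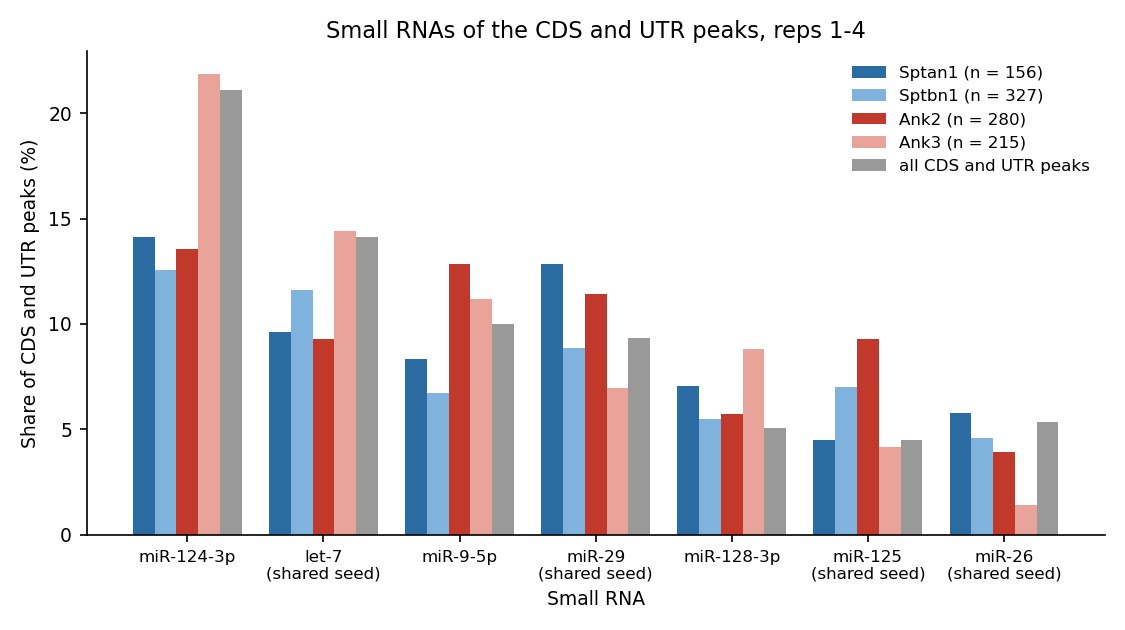
Share of CDS and UTR peaks in reps 1-4 (vertical axis, percent) by small RNA or group of shared seed, for 4 genes and for all such peaks of the list in grey. The miR-124-3p bars of Sptan1, Sptbn1 and Ank2 stand between 12.5% and 14.1% and those of Ank3 and of all peaks at 21.9% and 21.1%, while the miR-29 bars of Sptan1 and Ank2 reach 12.8% and 11.4%.

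As a description of likeness, the shares of each small RNA among CDS and UTR peaks were compared between genes by their cosine similarity (1 for the same proportions), over the 307 other genes with at least 50 such peaks in reps 1-4. Sptan1 and Sptbn1, the 2 chains of 1 tetramer, were each other's closest gene, at 0.947. The next for Sptan1 were the kinesin motor gene Kif1b (0.940) and the glutamate receptor subunit Gria3 (0.937). For Sptbn1 they were the glutamate transporter Slc1a2 (0.947, level with Sptan1 at this rounding) and Kif1b (0.932). Ank2 was closest to Kif1b (0.938), the cytoskeletal crosslinker Macf1 (0.934) and Slc1a2 (0.931), and Ank3 to the calcium pump genes Atp2b1 (0.945) and Atp2b2 (0.944). Median similarities to the other genes were high, from 0.832 for Ank2 to 0.874 for Ank3, and Ank2 and Ank3 were at 0.902 to each other. By rank among the 307 genes, Ank3 was 30th for Ank2 and Ank2 was 83rd for Ank3. The profiles share their library, depth and leading small RNAs.

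The smaller lists were compared with reps 1-4 by the share of peaks on each gene, asking whether the second set of anti-Ago2 libraries and the myc pull-down from excitatory neurons met the same genes. Sptbn1 had 445 peaks in reps 1-4 (0.181%, 0.165 to 0.198%), 18 in reps 5-7 (0.498%, 0.316 to 0.787%) and 6 in the excitatory list (0.783%, 0.359 to 1.70%). The first interval lies below the other 2, which overlap each other. Ank2 had 707 (0.287%), 10 (0.277%, 0.150 to 0.509%) and 4 (0.522%, 0.203 to 1.33%). Ank3 had 531 (0.216%), 8 (0.222%, 0.112 to 0.437%) and 2 (0.261%, 0.0716 to 0.947%), and Sptan1 had 173 (0.0703%), 4 (0.111%, 0.0431 to 0.284%) and 2 (0.261%, 0.0716 to 0.947%). For these 3 genes the intervals of the smaller lists include the reps 1-4 share, except for Sptan1 in the excitatory list, whose interval starts just above it and rests on 2 peaks. Sptbn4 and Ank1 had 0 peaks in both smaller lists, which allows up to 0.0831% in reps 5-7 and 0.392% in the excitatory list, well above their reps 1-4 shares of 0.00609% and 0.00366%, so no loss was detectable at this depth.

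**Figure D4:**
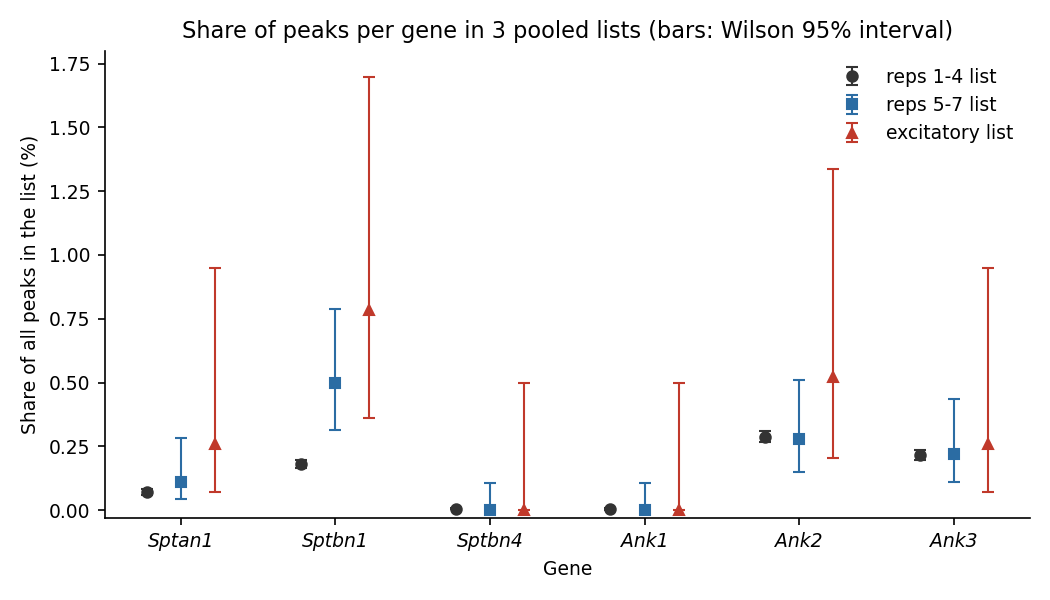
Share of a list's peaks that lie on each gene (vertical axis, percent) in the reps 1-4, reps 5-7 and excitatory lists, as points with Wilson 95% intervals. For Sptbn1 the points stand at 0.181%, 0.498% and 0.783%, and for Ank2 and Ank3 the reps 1-4 and reps 5-7 points lie side by side.

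Two-sided Fisher's exact tests on peak counts, with Benjamini-Hochberg adjustment over all genes with at least 10 peaks in both lists together, called Sptbn1 higher in reps 5-7 than in reps 1-4 (odds ratio 2.77, adjusted p = 0.0211). It was the 1 member called, of 5 tested, where 1.33% of the 4132 genes tested were called, 27 higher and 28 lower. The call was lost among CDS and UTR peaks (16 of 2383 against 327 of 103963, 0.671% and 0.315%, Fisher's exact test, adjusted p = 0.669), a setting in which 0% of 3127 genes were called and 128 had an unadjusted p under 0.05. By the same exact test it was also lost with 1 peak of each junction pair left out (adjusted p = 0.0728, added after seeing the data) and with peaks at or above the median score (0.0646), and the difference turned to -0.11 percentage points when reps 1-4 was reduced to its 3611 top-scoring peaks. Over the 8 alternatives with a test the adjusted p ran from 0.000507 to 1, and 4 of them kept the call. By the exact test these were merged sites (adjusted p = 0.000507), protein-coding annotations alone (0.00285), ribosomal RNA left out (0.00333) and IgG overlaps left out (0.0143).

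Between the excitatory list and reps 1-4, none of the 5 members tested passed this Fisher's exact test, with 0.268% of 4103 genes called. Sptbn1 had the largest odds ratio among them, 4.36, with an unadjusted p of 0.00309 and an adjusted p of 0.385. With overlapping peaks merged into sites its adjusted p was 0.0427. On CDS and UTR peaks it stood at 6 of 582 (1.03%, 0.473 to 2.23%) against 0.315% (exact test, adjusted p = 1), and 0.129% of 3099 genes were called. Between the excitatory and reps 5-7 lists, 3 members had enough peaks to be tested and 0 passed, with 21.9% of 32 genes called. Sptbn1 had an adjusted p of 0.520 and a difference of 0.28 points. On CDS and UTR peaks 0% of 26 genes were called and 6 had an unadjusted p under 0.05. These p-values compare lists, not conditions. The excitatory and reps 5-7 lists also carry the same 3 library numbers, whose meaning is not stated, so their independence is not known.

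Recurrence between lists was counted as the same small RNA at the same place. All 40 member peaks of reps 5-7 and all 14 of the excitatory list shared at least 1 base and the strand with a peak that the same small RNA had in reps 1-4 (intervals 91.2 to 100% and 78.5 to 100%). Over all peaks of these lists the shares were 87.5% and 93.1%, and over their CDS and UTR peaks 91.6% and 96.7%. The members' intervals include both CDS and UTR shares, so such recurrence was not shown to be particular to these genes. With a reciprocal overlap of at least 50%, 25 of 40 (62.5%) and 10 of 14 (71.4%) remained. Under that rule the shares over all peaks were 45.3% and 56.5%, and over CDS and UTR peaks 54.5% and 63.9%. The matching reps 1-4 peaks were high for the family, with median scores of 72.5 for the reps 5-7 peaks and 113 for the excitatory peaks, against 4 over all 1880 member peaks. Of the 40, 24 were in the CDS, 9 in the 3′ UTR and 7 in introns, and of the 14, 10, 2 and 2.

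**Figure D5:**
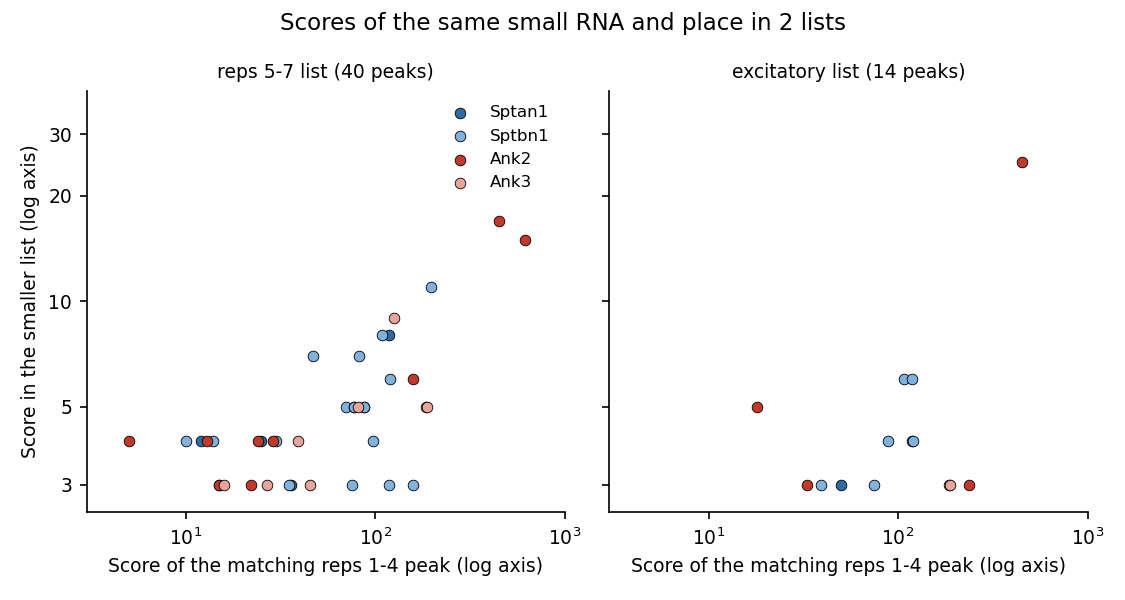
Score of each member peak in the reps 5-7 list (left, 40 peaks) and the excitatory list (right, 14 peaks) against the score of the matching reps 1-4 peak, on log axes, coloured by gene. The miR-128-3p peak of Ank2 is the highest point on both panels, at 17 on the left and 25 on the right.

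Of the 14 excitatory peaks, 9 also met a peak of their own small RNA in reps 5-7 (64.3%, 38.8 to 83.7%), where the share over all excitatory peaks was 55.5%. These lists carry the same 3 library numbers, whose meaning is not stated, so their independence is not known. The miR-128-3p peak of Ank2 scored 451 in reps 1-4, 17 in reps 5-7 and 25 in the excitatory list. Outside ribosomal RNA it ranked 47th of 241105, 48th of 2894 and 5th of 677 peaks. On Sptbn1, a miR-138-5p peak of 11 in reps 5-7 spanned the peaks of 198 and 152 and overlapped the edge of that of 89, and one of 4 in the excitatory list lay over the peak of 89. In the same order of lists, miR-128-3p scored 108, 8 and 6, miR-29a-3p 120, 6 and 4, and miR-9-5p 118, 3 and 6 at one exon and 75, 3 and 3 at another. On Sptan1 the 3′ UTR peak of miR-29a-3p gave 118, 8 and 4. Both paired miR-124-3p peaks of Ank3, which flank the same intron, complete the 9. Scores were not scaled to library size, so levels in different lists are given side by side and not compared.

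The other 5 excitatory peaks had no partner of the same name in reps 5-7. They were miR-103-3p on Ank2 at chr3:127052753-127052777 with a score of 5 (18 in reps 1-4), miR-124-3p on Ank2 with 3 (237), miR-29b-3p on Ank2 with 3 (33, within the dense interval listed as an intron), miR-124-3p on Sptan1 with 3 (50) and miR-29a-3p in the 3′ UTR of Sptbn1 with 3 (39). The last of these overlapped a reps 5-7 peak of miR-29b-3p, which has the same seed. Thus 10 of the 14 (71.4%) met a reps 5-7 peak of any small RNA, where 64.6% of all excitatory peaks did. The miR-103-3p peak was the highest of the 5 peaks of that microRNA in the excitatory list.

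The other reps 5-7 peaks had no excitatory partner of the same name. On Ank2 miR-125b-5p scored 15 at the place of the pair at 616 and 612, and 6 at that of the peak at 159. It had 0 Ank2 peaks in the excitatory list, which allows up to 0.392% of that list. Its 2 Ank2 peaks in reps 5-7 were of 3611, so no loss was detectable at this depth. Both miR-29b-3p and miR-29c-3p scored 3 at chr3:126953218-126953237, and miR-29b-3p scored 4 in another exon. A coding exon held miR-9-5p at 4, the dense interval listed as an intron held miR-124-3p and miR-9-5p at 4 each, and the 3′ UTR held miR-9-3p at 3. On Sptbn1 the 3′ UTR carried let-7c-5p at 7 and let-7a-5p at 4 over the same bases, 2 peaks of miR-124-3p at 4 and miR-29b-3p at 3. That miR-29b-3p peak, and one of miR-29b-3p at 7 beside miR-29a-3p at 6 in a coding exon, overlapped excitatory peaks of miR-29a-3p. The coding exons also carried a second miR-29a-3p site at 5, miR-26a-5p at 4 and miR-22-3p at 3. On Ank3, miR-124-3p scored 9 in the 3′ UTR (125 in reps 1-4) and 5 in the longest coding exon (81), let-7d-5p scored 3 there, miR-9-5p scored 3 in another exon, and miR-124-3p scored 4 and 3 in a pair of introns (39 and 27). On Sptan1, miR-124-3p scored 4 across the stacked 3′ UTR site, let-7c-5p 4 at the stack of 7 small RNAs and miR-26a-5p 3.

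The partners of spectrin and ankyrin were followed with a list of 35 symbols, which stand for 34 genes because 2 of them name the same gene. It holds other spectrin chains, adducins, protein 4.1 genes and tropomodulins of the skeleton, channels, pumps and adhesion molecules that ankyrins hold, and a few kinase, dynactin and tubulin genes. Of the symbols, 32 had a peak in reps 1-4, 16 in reps 5-7 and 6 in the excitatory list. In the Fisher's exact tests over all genes, 0 of the 30 list genes tested were called in reps 5-7 against reps 1-4 or in the excitatory list against reps 1-4, with 4 and 1 at an unadjusted p under 0.05. Of the 30, 14 had no peak in reps 5-7 and 24 had none in the excitatory list. In the excitatory comparison 0 of all genes tested were called lower, so a lower share could hardly be detected there at this depth. Over all genes tested, 1.33% and 0.268% were called, and 268 of 4132 and 123 of 4103 had an unadjusted p under 0.05, so a count of 0 in 30 is near the background. The median was 41.5 peaks over the 34 genes in reps 1-4, and 1 of them had at least as many as Sptbn1. No list gene had enough peaks to be tested between the excitatory and reps 5-7 lists. Among CDS and UTR peaks 0 of 28 were called by the same test in either comparison, with 1 and 1 at an unadjusted p under 0.05. Over all genes 0% of 3127 and 0.129% of 3099 were called there, with 128 and 58 at an unadjusted p under 0.05.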

How the data were processed

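Peaks of chimeric reads were measured in 12 libraries of mouse forebrain and deposited as 4 annotated lists, 1 per group. Per the file headers of the calling summaries, the authors pooled the libraries of a group, required at least 3 reads and 2 libraries per peak and used mm10, which the submitters' processing notes also give. Which aligner and peak caller were used is not given in the sources used here. Scores are whole numbers deposited by the authors with no definition and no scaling to depth. Libraries were read with paired 150-base reads, 61 to 138 M per sample per the labels' protocols, and no depth per library is given, so precision follows from peak numbers. Pooling leaves no replicate spread.

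Rows were taken by gene symbol. The members, lists and tests were chosen with earlier results of these data known. Peaks per gene were tested between 3 pairs of lists with two-sided Fisher's exact tests, on all peaks and on CDS and UTR peaks, with Benjamini-Hochberg adjustment over all genes with at least 10 peaks in both lists together and a threshold of 0.05. The test was checked on simulated counts. Peaks of any small RNA that overlapped by at least 1 base on a strand were merged into sites. Ribosomal RNA peaks were those annotated as such and those within 5000 bases of Gm42418 on its strand. Named were all members, per member the 5 small RNAs with the most peaks and the 5 top-scoring peaks of reps 1-4, every peak of the smaller lists, the 3 sites with the most small RNAs, the 3 genes most alike, and skeleton genes past the test. Some genes of the marker, skeleton and likeness lists are not reported here by name. Items outside this rule are said to be chosen after seeing values or stand in a stack or junction described. Gene spans and 18 of the 20 mature sequences looked up matched RefSeq (GRCm38.p6). The libraries of reps 5-7 and of the excitatory list carry the same 3 library numbers in the calling summaries, whose meaning is not stated. Python 3.11.15, pandas 2.3.3, numpy 2.4.6, scipy 1.17.1 and matplotlib 3.10.9 were used.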

Additional observations from a re-analysis of the deposited data

How the results depend on the processing

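No paired analysis was possible because peaks were called on pooled libraries, so no value belongs to 1 replicate, and no library could be left out. Seed matches around the peaks, with their 2 alternatives, were not run without a genome. The cause of the changes below was not tested unless stated. Between reps 5-7 and reps 1-4, the 55 genes called became 21 with peaks at or above the median score, 3 with the larger list reduced to its top-scoring peaks and 0 with 3′ UTR peaks alone, and the 0 called among CDS and UTR peaks became 17 with merged sites. Between the excitatory list and reps 1-4, 11 became 3 (reduced list) and 2 (3′ UTR), and 4 became 1 (median score), 1 (reduced list) and 2 (merged sites). Between the excitatory and reps 5-7 lists, 7 became 1 (median score), 4 (reduced list), 1 (merged sites), 0 (ribosomal RNA left out), 0 (protein-coding alone) and 2 (3′ UTR), and 0 became 1 (reduced list, CDS and UTR).

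The Sptbn1 difference between reps 5-7 and reps 1-4, 0.32 points, was, by the same exact test, 0.41 (adjusted p = 0.0646, median score), 0.26 (0.852, 3′ UTR), 0.27 (0.0728, 1 peak per junction pair), -0.11 (reduced list) and 0.055 in summed scores. This difference stayed called with merged sites, protein-coding annotations alone, ribosomal RNA left out and IgG overlaps left out. Among CDS and UTR peaks it was -0.21 (reduced list) and 0.43 (merged sites, exact test, adjusted p = 0.0290). Against reps 1-4, the excitatory difference of 0.60 was 0.81 with merged sites (exact test, adjusted p = 0.0427) and 0.10 in summed scores, and that among CDS and UTR peaks was 0 with the reduced list.

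Small uncalled differences changed sign. For Ank2 in reps 5-7 (-0.01 points) they were 0.0028 (median score), 0.089 (sites), 0.0011 (IgG overlaps left out), 0.052 (ribosomal RNA left out) and 0.065 (protein-coding alone), and -0.084 among CDS and UTR peaks (reduced list). For Ank3 in reps 5-7 they were -0.0036 (median score) and -0.018 (1 peak per junction pair), and among CDS and UTR peaks -0.0093 (median score) and -0.042 (reduced list). In the excitatory list against reps 1-4, Ank2 gave -0.11 (3′ UTR) and -0.69 (reduced list, CDS and UTR), and Ank3 gave -0.23 (median score), -0.076 (3′ UTR), -0.082 (1 peak per junction pair) and 0.13 (exon-edge peaks added to CDS and UTR peaks). Ank3 between the excitatory and reps 5-7 lists was -0.0021 with sites.

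Recurrence in reps 1-4 fell from 100% to 62.5% (reps 5-7) and 71.4% (excitatory) under reciprocal overlap. Over all peaks of these lists it fell from 87.5% to 45.3% and from 93.1% to 56.5%. CDS shares moved with the unit. In summed scores they were 70.2% (Sptbn1), 60.3% (Ank2) and 46.4% (Ank3). With peaks at or above the median score they were 63.0%, 38.4% and 38.0%, and in merged sites 45.9%, 20.3% and 24.5%. With exon-edge peaks counted as coding, Sptan1 was at 86.1% and Sptbn1 at 62.7%, and Ank2 was at 40.9% with its dense interval. The miR-124-3p share became 22.1% (Sptan1), 8.29% (Sptbn1) and 40.4% (Ank3) in summed scores. The numbers of merged sites stayed within 1.5 times when peaks within 20 bases were merged. The alternatives on exon edges, 1 peak per junction pair and the Ank2 interval were chosen after seeing the data.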

Other observations

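Values of the other genes of the skeleton list, chosen after their values were seen, place the family beside its partners. The red cell beta chain Sptb had 30 peaks in reps 1-4, and Sptbn5 had 0 in each list. Among the adducins, which cap actin at spectrin junctions, Add2 had 51 peaks with a top score of 192 for miR-124-3p, Add1 39 and Add3 40.

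Among membrane proteins held by ankyrins, the adhesion gene Nrcam had 164 peaks in reps 1-4 and 1 in each smaller list, with 39.6% on CDS or UTRs. The potassium channel gene Kcnq3 had 325 peaks, 8.31% of them on CDS or UTRs. The list gene with more peaks than Sptbn1 was Cntnap2, a node-flanking adhesion gene, with 660 peaks, of which 1.36% lay on CDS or UTRs.

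Over the whole of reps 1-4, 2279 pairs of peaks of 1 small RNA met around a listed intron, in 1315 genes. On Sptbn1, miR-326-3p and miR-330-5p, which share the seed CUCUGGG in RefSeq, had 9 CDS and UTR peaks together (2.75%), against 0.241% of all such peaks. This pair was picked out after its values were seen and was not tested.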
